A study of Mus musculus with 19 samples.

Results

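The 14 livers of mice given dibenz[a,h]anthracene (DB[a,h]A), a polycyclic aromatic hydrocarbon, were taken as one group whatever the dose and set against the 5 livers at 0 mg/kg. They were chosen by the labelled dose alone, as every array above 0 mg/kg, and make up 14 of the 19 arrays of the series. The treated group holds 5 animals at 6.25 mg/kg, 4 at 12.50 mg/kg and 5 at 25 mg/kg. All 19 mice, controls included, were males of the transgenic mouse strain 40.6, 10 weeks old, and were sampled 3 days after exposure. The labels name no transgene and no promoter for this strain, and they call the tissue a part of the liver. The series' design text gives each array the RNA of 1 mouse, so the spread within a group is a spread between animals. The comparison asks which genes differed in treated livers regardless of the dose.

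DB[a,h]A is a ligand of the aryl hydrocarbon receptor (AhR), a transcription factor that switches on cytochrome P450 genes, and these enzymes turn the compound into products that bind DNA. Damaged DNA activates the transcription factor p53, which raises genes of growth arrest, repair and cell death. The liver also runs a circadian clock. In it, CLOCK and BMAL1 drive their own repressors (the Per, Cry and Rev-erb genes) through E-box sequences, while the activators Dbp, Tef and Hlf and the repressor Nfil3 compete for D-box sequences in downstream genes. Many liver genes of metabolism follow this rhythm.

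Each array measured liver RNA in red against a single reference, made of RNA of 11 mouse cell lines, in green. A value is therefore the log2 ratio of liver to reference, and a change is the treated minus the control mean of that ratio with its standard error (SE), fitted with the slide as a block. Every slide carried controls and all 3 doses: slide 1 held 2 controls and 3 treated livers, slide 2 held 2 and 6, and slide 3 held 1 and 5. Liver signal stood well above background at 35.5 to 56.7% of spots. That share differed between treated and control livers by -0.54 percentage points with slide taken out (exact permutation test within slides, two-sided, adjusted p = 0.904 over 4 measures of signal). The difference varied by slide, at -4.76, 1.05 and 2.69 points on slides 1, 2 and 3. The hepatocyte genes Alb, Apoa1, Ttr and Serpina1c were above background on all 19 arrays, the acinar gene Prss2 on 0 and the adipocyte gene Adipoq on 1. Other markers of those 2 cell types were detected. Of 12 acinar markers 2 were above background on all arrays and 3, Prss2 among them, on none. For 10 adipocyte markers these counts were 2 and 2. In whole tissue, fewer cells of a type and less RNA per cell cannot be told apart.

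Treated livers differed from control livers in a small group of genes, led by the circadian clock. Dbp was 10.8-fold and Usp2 7.48-fold higher, Tef and Nr1d2 rose with them, and the clock repressor Nfil3 was 2.22-fold lower. The p53 targets Ccng1, Gadd45a and Zmat3 rose, by 1.26- to 1.78-fold. Genes that fell included Chka (2.31-fold), the melatonin receptor Mtnr1a (2.25-fold), Pnrc1 (1.98-fold) and the nuclear receptor Ppard (1.79-fold). No measured target of the AhR, the receptor that DB[a,h]A binds, passed the test, and Cyp1a1 and Ahrr were too dim to be tested.

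In limma, 53 of 29415 probes passed at an adjusted p under 0.05, which is 0.180% of those tested. Of these, 23 were higher in treated livers (0.0782%) and 30 lower (0.102%). The absolute change among the 53 ran from 0.33 to 3.43, with a median of 0.70, and 33 changed by at least 1.5-fold. Counting each gene by its brightest probe, 30 of 13812 genes passed (0.217%), 15 higher (0.109%) and 15 lower (0.109%). At an unadjusted p under 0.05 there were 3624 probes (12.3%) and 1822 genes (13.2%). Among the 53 probes, 13 had no symbol. By the naming rule, 2 of those are given: A_55_P2148534, which rose by 1.22 (adjusted p = 0.00200), and A_52_P329367, which fell by 1.27 (adjusted p = 0.0260).

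**Figure D1:**
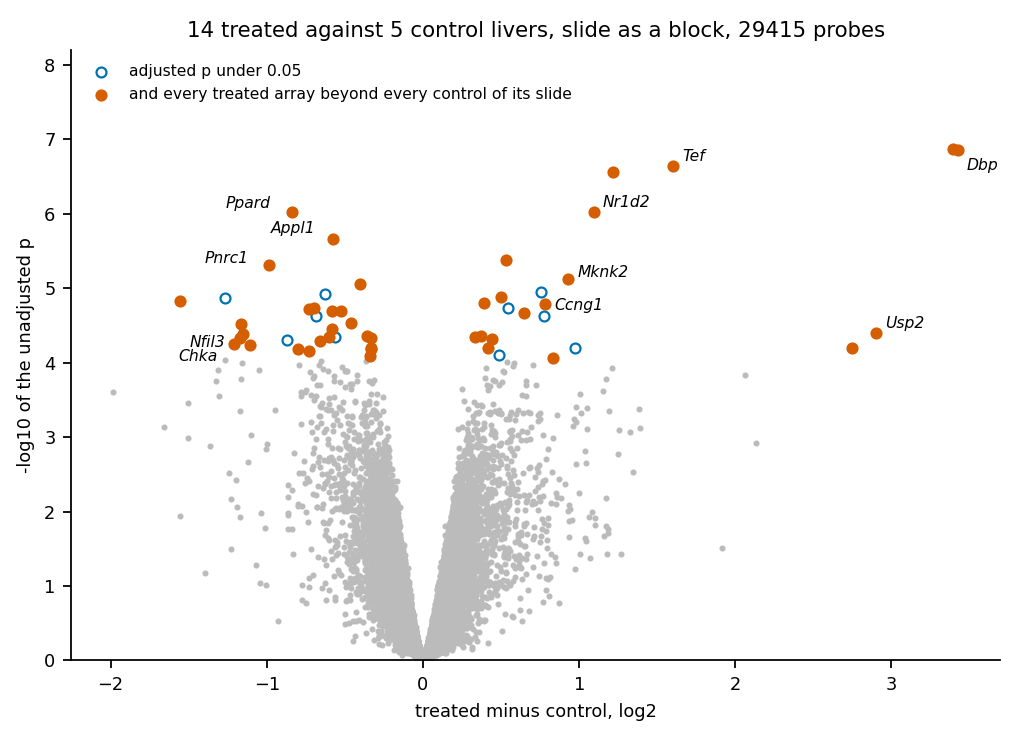
Each point is 1 of 29415 probes, with the treated minus control log2 change on the x axis and -log10 of limma's unadjusted p on the y axis. Coloured points are the 53 probes with an adjusted p under 0.05, and filled ones are the 43 of them in which every treated array lay beyond every control of its slide. The 2 points farthest to the right at the top are both probes of Dbp.

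That count rested heavily on single animals and on the handling of the slides. Without the slide block 4 probes passed, among them Dbp and Nr1d2. Leaving out 1 animal at a time gave 4 to 152 probes. The count was 4, 11, 6 and 10 without control replicate 1, 2, 4 or 5. It was 152, 134, 33, 95 and 14 without 6.25 mg/kg replicate 1, 2, 3, 4 or 5, it was 83 or 80 without 12.50 mg/kg replicate 1 or 2, and 35 without 25 mg/kg replicate 1, 3 or 5. Control replicate 1 is the only control on slide 3, so that without it slide 3 adds nothing to the comparison. Dbp and Tef passed in all 19 of these fits, Nr1d2 and Ppard in 18, Appl1 in 17 and Pnrc1 in 16, while Gadd45a passed in 5 and Rcor1 in 6. The other 19 named genes that passed did so in 8 to 15 of the fits, and the highest adjusted p among all these fits was 0.209.

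The question of every treated animal can also be put without a model, by asking on each slide whether all treated livers lay beyond all its controls in the same direction. This held for 211 of 28712 probes with a value on every array (0.735%), of which 89 were higher (0.310%) and 122 lower (0.425%). Over genes it held for 117 of 13546 (0.864%), 54 higher (0.399%) and 63 lower (0.465%). The stricter form, with all 14 treated livers beyond all 5 controls after slide differences were taken out, held for 95 probes (0.331%). These counts come from the same values as the test and are a description of them. Of the 53 probes that passed, 43 were separated on every slide and 33 across all arrays, and all 53 had the same sign at each dose and on each slide. Both requirements together, over brightest probes, left 26 genes, 12 higher and 14 lower. The 4 genes that passed without separating were Cry2 and, chosen after their values were seen, Fam76a (0.54), the peroxisomal membrane gene Pxmp4 (-0.69) and Pcp4l1 (0.97).

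Among genes with a symbol, the clock's output activators Dbp and Tef had the smallest adjusted p-values in limma. Dbp encodes a transcription factor driven directly by CLOCK and BMAL1. With slide differences taken out, its 5 control values were -3.06, -2.10, -1.63, -1.40 and -0.91, and its 14 treated values ran from -0.71 to 2.81 with a median of 1.79. All treated livers lay above all controls, the lowest being 6.25 mg/kg replicate 1. The change was 3.43 ± 0.43 (limma, adjusted p = 0.00200), and 4.31, 2.54 and 3.76 on slides 1, 2 and 3. A further probe of Dbp rose by 3.39 with the same adjusted p.

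Tef encodes a close relative of Dbp that binds the same D-box. Its controls stood at -0.35, -0.11, -0.01, 0.19 and 0.41, and its treated values ran from 0.80 to 2.30 with a median of 1.60. The groups did not overlap, and the change was 1.60 ± 0.21 (limma, adjusted p = 0.00200). The third member of this family, Hlf, had 0.49 ± 0.13 and did not pass (adjusted p = 0.114).

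Usp2, whose deubiquitinase product cycles daily in the liver, had control values of -2.32, -2.22, -1.59, -1.03 and -0.80 and treated values from -0.99 to 3.13, with a median of 1.46. On each slide every treated liver lay above the controls, but across slides 13 of 14 lay above the highest control. Its change was 2.90 ± 0.55 (limma, adjusted p = 0.0359), 4.03, 2.00 and 2.90 by slide. It was above background in 4 of 5 controls and all treated livers.

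Among the clock's repressors, Nr1d2, which encodes the nuclear receptor REV-ERB beta, had controls at -0.13, -0.03, 0.10, 0.43 and 0.78 and treated values from 0.89 to 1.73, with a median of 1.41. No treated liver overlapped a control, and the change was 1.10 ± 0.16 (limma, adjusted p = 0.00462). Cry2, whose protein inhibits CLOCK and BMAL1, had controls at 0.31, 0.50, 0.67, 0.71 and 0.89 and treated values from 0.83 to 1.75, with a median of 1.39. A single treated liver, 6.25 mg/kg replicate 4, lay below the highest control, which shared its slide, and the change was 0.75 ± 0.13 (adjusted p = 0.0260). Nr1d1, the close relative of Nr1d2, had 0.39 ± 0.36 (adjusted p = 0.723).

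Nfil3, the repressor at D-box sequences, ran the other way from Dbp and Tef. Its controls stood at 1.15, 1.33, 1.63, 1.72 and 1.85 and its treated values ran from -0.40 to 1.20 with a median of 0.36. Across slides 13 of 14 treated livers lay below the lowest control, and the change was -1.15 ± 0.22 (limma, adjusted p = 0.0359). The slide values were -1.24, -0.95 and -1.37.

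**Figure D2:**
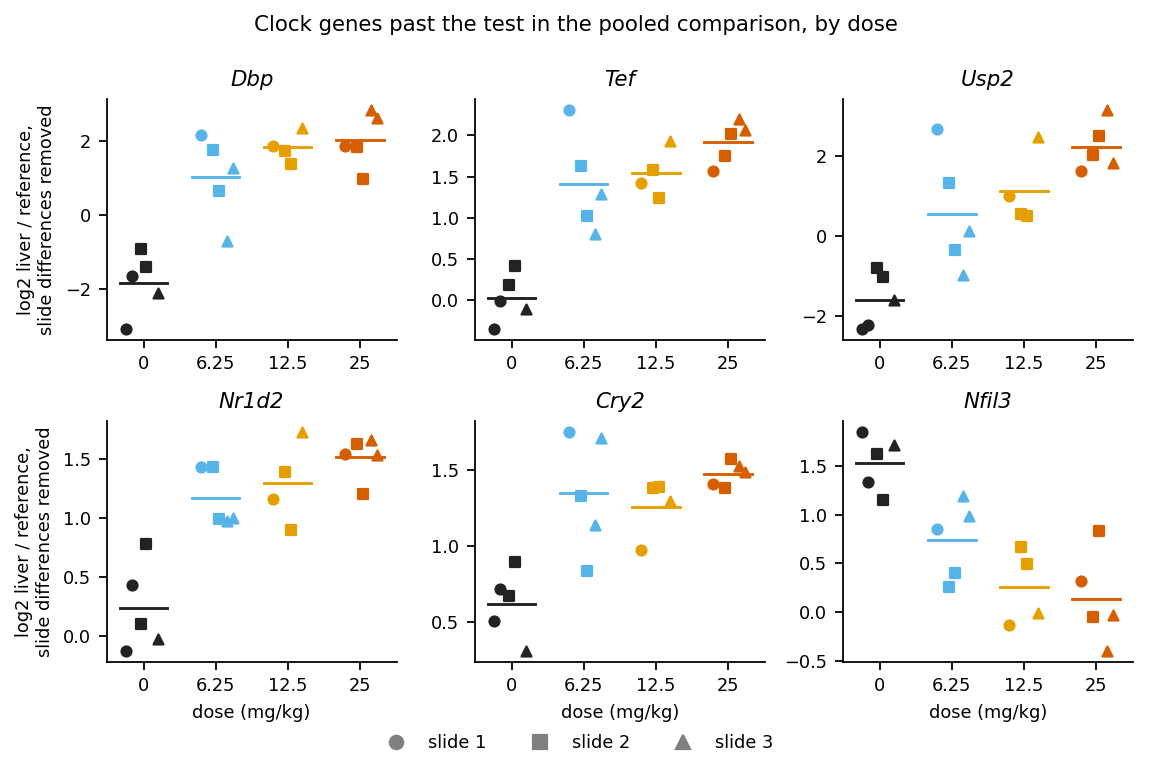
Log2 ratio of liver to reference, with slide differences taken out, for the 6 clock genes that passed, against the dose in mg/kg. Each point is 1 liver (5 controls, then 5, 4 and 5 treated), its shape gives the slide and lines are group means. Dbp, Tef and Nr1d2 show no overlap between controls and treated livers, Cry2 and Usp2 overlap by 1 treated liver each, and Nfil3 lies lower in treated livers with 1 overlapping.

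Over the list of 27 clock genes, 25 were measured. Of these 17 were higher (68%, against 50.2% of all genes) and 8 lower. In the test 5 passed as higher and 1 as lower, against 0.217% of all genes. In 16 of the 25 the unadjusted p was under 0.05 (64%, against 13.2% of all genes). The list's median change was 0.49, with 0.00 over all genes, and 0.57, 0.27 and 0.56 within slides 1, 2 and 3. The 16 include Per3, Wee1 and Ciart, which were above background in 0, 2 and 1 of 5 controls and in 11, 13 and 9 of 14 treated livers, so these genes were kept mainly through the treated group and their changes are not given. Arntl, which encodes BMAL1, separated on every slide without passing the test (-1.98 ± 0.45, adjusted p = 0.0645). It falls outside the naming rule, having been chosen once its values were seen. Its control values were 0.66, 0.85, 1.38, 1.58 and 2.05 and its treated values ran from -2.13 to 1.26. The labels give no hour of collection for any animal, and its part in these values was not tested.

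The promoters of the clock genes were searched because the genes moved together. RefSeq (GRCm38.p6) held the 300 bases from 250 before to 50 after the start for all 6 clock genes that passed. The E-box CACGTG was found at both starts of Tef and in none of the other 5 genes, while 11.1% of 11002 measured genes hold one. The half-site AGGTCA, bound by the REV-ERB and ROR receptors, was found in Nr1d2 and Nfil3 and in 16.2% of measured genes. The D-box letters TTATGTAA or TTACGTAA were in none of the 6 windows and in 1.05% of measured genes. Both strands were read, and these motifs share no letters within the stretches printed. The stretches with a match follow, 5′ to 3′ on the gene's strand, with the matched letters in capitals. They lie at chr15:81802526-81802571 and chr15:81811256-81811301 (plus strand) for Tef, chr14:18239158-18239203 (minus strand) for Nr1d2 and chr13:52981040-52981071 (minus strand) for Nfil3, where the match is the half-site's reverse complement.
Tef, first start: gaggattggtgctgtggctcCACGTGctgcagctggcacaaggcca
Tef, second start: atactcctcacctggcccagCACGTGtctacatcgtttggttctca
Nr1d2: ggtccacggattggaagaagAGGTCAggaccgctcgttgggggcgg
Nfil3: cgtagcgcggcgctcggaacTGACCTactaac
A match is a description of these letters and not a binding site, and a window without one says nothing of elements farther away.

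The p53 targets that passed were all higher. Ccng1, which encodes cyclin G1, had controls at -2.24, -1.92, -1.91, -1.85 and -1.77 and treated values from -1.72 to -0.52, with a median of -1.12. The groups did not overlap, and the change was 0.78 ± 0.14 (limma, adjusted p = 0.0260). Gadd45a, a growth arrest and DNA damage gene, had controls at -2.90, -2.64, -2.59, -2.34 and -2.32 and treated values from -2.29 to -0.96, with a median of -1.75. The lowest treated liver lay just above the highest control, and the change was 0.83 ± 0.17 (adjusted p = 0.0485).

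Zmat3 encodes an RNA-binding zinc finger protein under p53 control. Its controls stood at -1.95, -1.88, -1.85, -1.77 and -1.73 and its treated values ran from -1.67 to -1.30, with a median of -1.49. The change was small, 0.34 ± 0.06, and the groups did not overlap (limma, adjusted p = 0.0359).

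Of 35 listed p53 targets 30 were measured, with a median of 0.19. Of these, 26 were higher (86.7%, against 50.2% of all genes) and 4 lower. The 3 above passed, where 0.109% of all genes passed as higher. At an unadjusted p under 0.05 there were 13, all of them higher (43.3% of the list). Over all genes 6.47% were higher and 6.73% lower at that p. The 13 include Ddias and Polk, which were above background in 1 and 2 of 5 controls and in 9 and 13 of 14 treated livers. Aen, a nuclease induced by p53, separated on every slide without passing (0.75 ± 0.18, adjusted p = 0.0777) and was chosen after its values were seen. The best known targets did not pass. Cdkn1a, whose product p21 halts the cell cycle, had 0.59 ± 0.31 (adjusted p = 0.467), with 0.19, 0.77 and 0.83 at the 3 doses from low to high. Mdm2, the gene of the ubiquitin ligase acting on p53, had 0.16 ± 0.06 (adjusted p = 0.308).

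The other genes that rose in every treated liver covered several functions. Mknk2, a kinase of the translation factor eIF4E, had controls at -1.0, -0.87, -0.69, -0.65 and -0.52 and treated values from -0.31 to 0.75, and changed by 0.93 ± 0.16 (limma, adjusted p = 0.0221). Smaller rises without overlap were found for Sorbs3, an adaptor of cell adhesion sites (0.50), Frrs1, a ferric-chelate reductase (0.44), Amer1, a regulator of Wnt signalling (0.42), and Tpp1, a lysosomal peptidase (0.37). Their adjusted p-values lay between 0.0260 and 0.0396.

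Among the genes that fell, Ppard had the smallest p. It encodes the nuclear receptor PPAR delta. Its controls stood at -1.0, -0.89, -0.53, -0.49 and -0.20 and its treated values ran from -1.77 to -1.19, with a median of -1.40. No treated liver overlapped a control, and the change was -0.84 ± 0.12 (limma, adjusted p = 0.00462), with -0.85, -0.77 and -0.89 at the 3 doses in rising order.

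Appl1 encodes an endosomal adaptor of insulin and adiponectin signalling. Its controls lay at -0.69, -0.66, -0.64, -0.57 and -0.40 and its treated values ran from -1.35 to -0.84, a change of -0.58 ± 0.09 (limma, adjusted p = 0.00921). Pnrc1, a coactivator of nuclear receptors, had controls at 0.11, 0.14, 0.16, 0.30 and 0.41 and treated values from -1.32 to -0.04, a change of -0.98 ± 0.16 (adjusted p = 0.0160). For both genes all 14 treated livers lay below all controls.

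Chka encodes choline kinase alpha, the first enzyme of phosphatidylcholine synthesis from choline. Its controls were at 0.65, 0.71, 1.0, 1.28 and 1.58 and its treated values ran from -0.92 to 0.72, with a median of -0.16. Across slides 13 of 14 treated livers lay below the lowest control, and the change was -1.21 ± 0.24 (limma, adjusted p = 0.0387). The other 2 probes of Chka passed as well, with -1.56 and -1.17.

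Mtnr1a, a melatonin receptor gene, had controls at 2.04, 2.43, 2.47, 2.66 and 3.76 and treated values from 0.60 to 1.97. The change was -1.17 ± 0.22 (limma, adjusted p = 0.0321), and -1.91, -0.74 and -0.87 by slide. A second, dim probe of the gene had -0.54 (adjusted p = 0.117). Cad, the enzyme that begins pyrimidine synthesis, had controls at 2.26, 2.33, 2.58, 2.61 and 2.69 and treated values from 0.90 to 2.17, a change of -0.80 ± 0.16 (adjusted p = 0.0396).

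Tff3 encodes a secreted trefoil peptide. Its controls stood at 5.48, 5.60, 5.60, 5.81 and 6.09 and its treated values ran from 3.59 to 5.31, a change of -1.11 ± 0.22 (limma, adjusted p = 0.0393). This value varied with the channel used. The liver channel alone gave -2.07 and the reference channel alone gave -1.10, although every array carried the same reference RNA. With the scanner software's own processed signals the change was -0.30 (adjusted p = 0.532).

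The remaining genes that fell on every slide were Gm2016, a predicted gene (-0.70), Mrgpre, an orphan receptor (-0.66), Tars, a threonyl-tRNA synthetase (-0.60), Th, tyrosine hydroxylase (-0.53), Abhd8, a predicted hydrolase (-0.36), and Rcor1, a corepressor (-0.34). Their adjusted p-values in limma lay between 0.0260 and 0.0460. A second probe of Rcor1 had -0.13 (adjusted p = 0.577). Treated and control livers overlapped across slides for Tars and Abhd8 and not for the other 4.

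**Figure D3:**
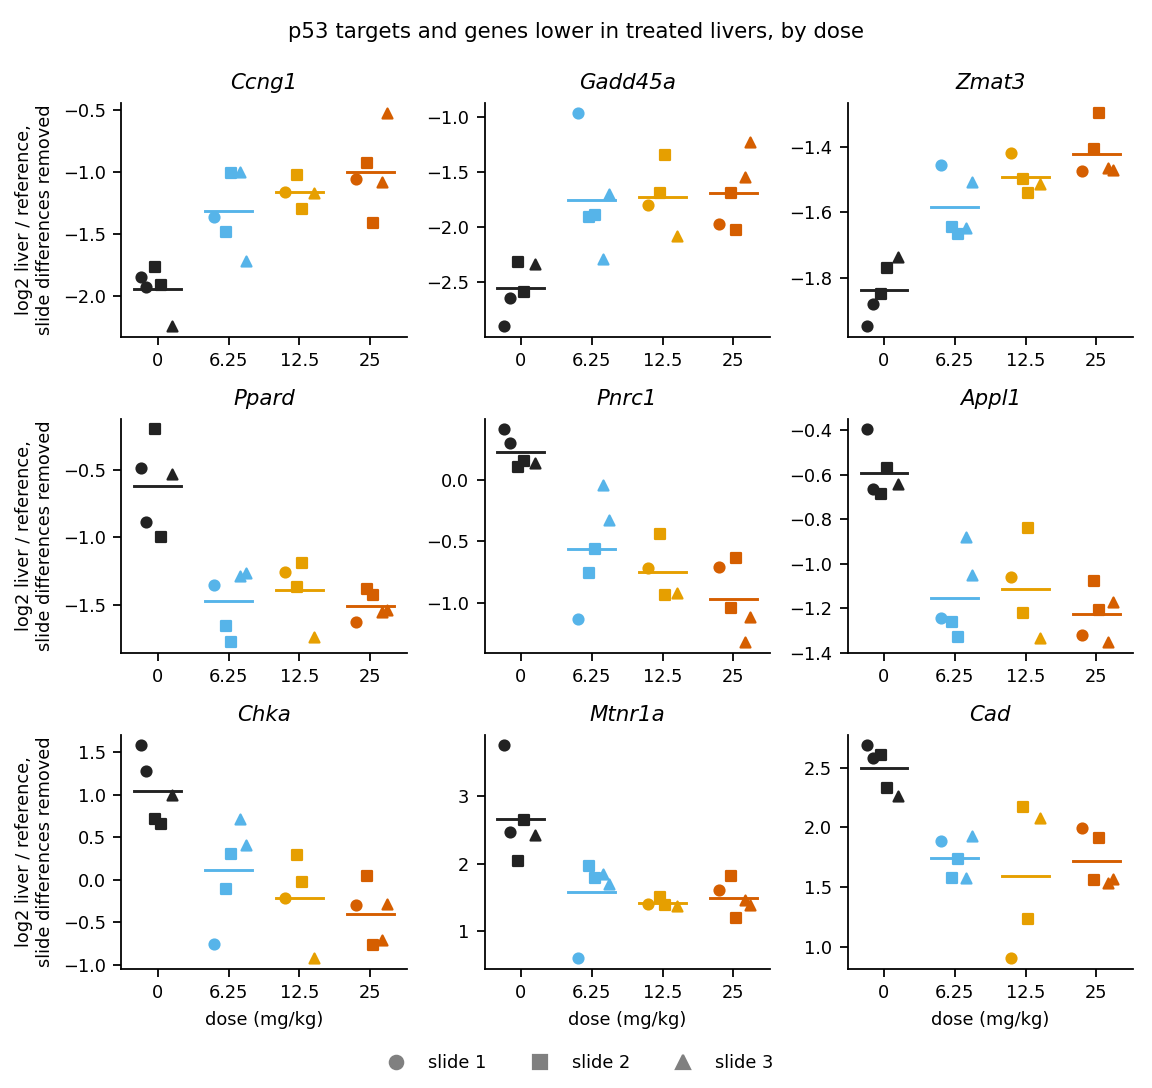
Log2 ratio of liver to reference, with slide differences taken out, for 3 p53 targets and 6 genes that fell, against the dose in mg/kg. Each point is 1 liver, its shape gives the slide and lines are group means. Controls and treated livers do not overlap except for Chka, where the highest treated liver (0.72) lies above the lowest control (0.65).

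Whether the pooled group is one group was asked among the 14 treated livers alone, with no control. No probe differed among the 3 doses in limma's F test (0 of 29415, smallest adjusted p = 0.130), with 3027 (10.3%) at an unadjusted p under 0.05. A linear trend on dose gave 0 as well (smallest adjusted p = 0.169), with 1477 (5.02%) unadjusted. Leaving out 25 mg/kg replicate 2 gave 3 probes in the F test, and leaving out 6.25 mg/kg replicate 2 gave 1. A p above the threshold does not show that the doses acted alike. Of the 53 probes 4 reached an unadjusted p under 0.05 in the F test and 9 in the trend.

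The dose values of the 26 genes and Cry2 were each set against the same 5 controls. Usp2 had 2.15 ± 0.58, 2.72 ± 0.61 and 3.81 ± 0.58 from the lowest dose to the highest, and Dbp had 2.83 ± 0.49, 3.65 ± 0.51 and 3.83 ± 0.49 (SE). Nfil3 had -0.79, -1.28 and -1.40. Gadd45a was near level at 0.81, 0.83 and 0.87, as were Sorbs3 at 0.52, 0.49 and 0.48 and Th at -0.51, -0.53 and -0.54. Frrs1 (0.47, 0.27 and 0.57) and Mrgpre (-0.83, -0.43 and -0.70) had their smallest value at 12.50 mg/kg. Without the 25 mg/kg arrays 5 probes passed, among them Dbp and Tef, and without the 6.25 mg/kg arrays 186 did.

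**Figure D4:**
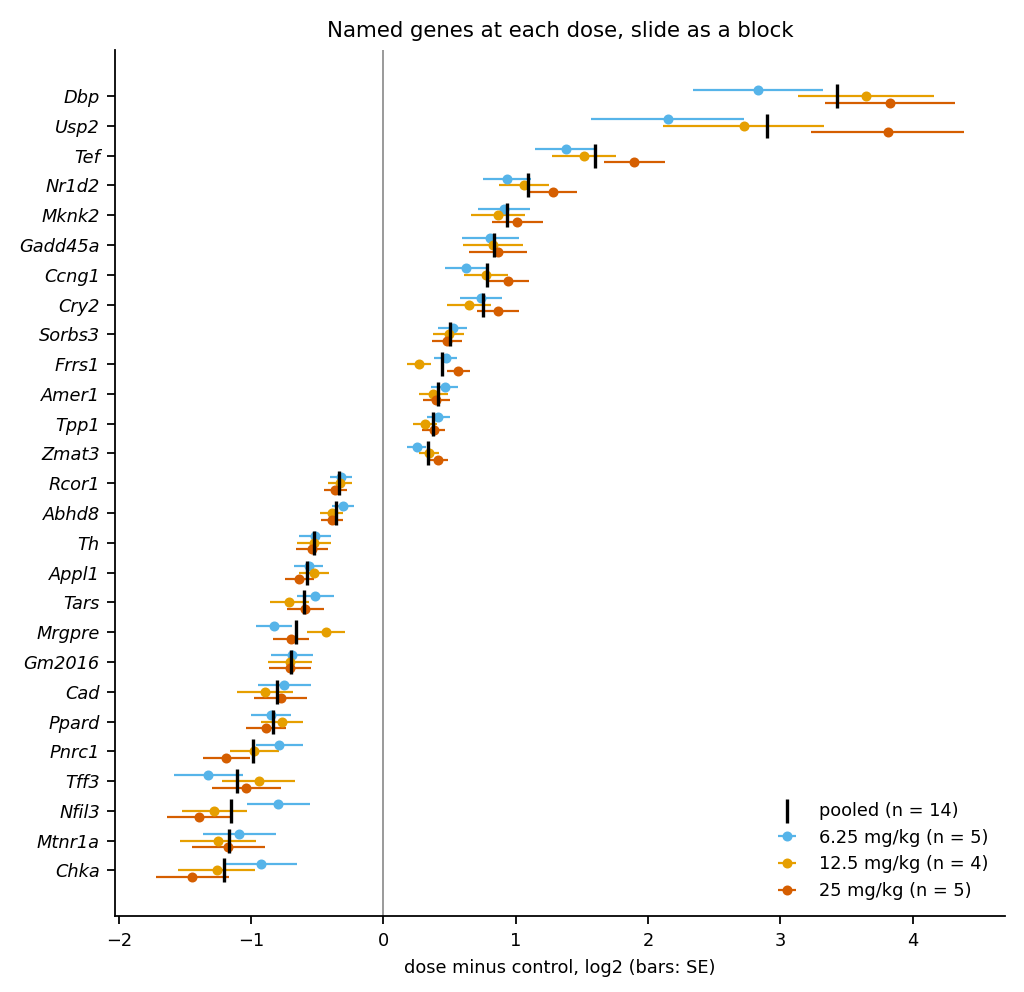
Dose minus control log2 change of the 26 genes that passed and separated, with Cry2, at 6.25 mg/kg (n = 5), 12.50 mg/kg (n = 4) and 25 mg/kg (n = 5), fitted with slide as a block; bars are SE and black ticks the pooled change (n = 14). All doses share the 5 controls. Every point lies on the same side of 0 as its pooled change.

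The direct targets of the receptor for DB[a,h]A were described with the same fit. Cyp1a1, the classic AhR target, was above background on 1 of 19 arrays and was not tested. Cyp1a2 had 0.05 ± 0.09 (95% interval -0.13 to 0.22, adjusted p = 0.881). Cyp1b1, above background on 8 arrays, had -0.01 ± 0.10, and the 2 probes of Ahrr, the gene of the AhR repressor, on 0 and 1. Of 20 measured members of the AhR list 15 were higher (75%, against 50.2% of all genes) and 5 lower. In the test 0 passed, against 0.217% of all genes, and 7 reached an unadjusted p under 0.05 (35%, against 13.2% of all genes). Members of small p included Fmo2, a flavin monooxygenase (0.76 ± 0.24, adjusted p = 0.170), and Nfe2l2, the gene of the antioxidant regulator Nrf2 (0.31 ± 0.11, adjusted p = 0.238).

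Outside the clock and p53 lists, no list had a member past the adjusted threshold. The list of the unfolded protein response holds the chaperones and stress factors of the endoplasmic reticulum. Its median was the most negative of all lists, -0.37 over 28 members, with 5 higher (17.9%, against 50.2% of all genes) and 23 lower. Of these, 13 had an unadjusted p under 0.05 (46.4%, against 13.2% of all genes), 11 lower and 2 higher. The members of smallest p were the stress factor Ddit3 (-0.78, adjusted p = 0.0645), the chaperones Dnajb11 (0.91, adjusted p = 0.170) and Hsp90b1 (-0.59, adjusted p = 0.172). The list's median was -0.11, -0.27 and -0.85 on slides 1, 2 and 3, and slide 3 rests on a single control.

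Genes of cholesterol synthesis and sterol sensing were mostly lower, 22 of 26, with 15.4% higher against 50.2% of all genes. Their median was -0.19, and -0.44, 0.02 and -0.11 by slide. Of the 26, 9 had an unadjusted p under 0.05 (34.6%, against 13.2% of all genes), 8 lower and 1 higher. Insig2, which holds back the activation of cholesterol genes, had -1.30 ± 0.30 (adjusted p = 0.0681), Nsdhl -0.26 (adjusted p = 0.146) and Mvd -0.86 (adjusted p = 0.232). In limma another probe of Insig2 had -1.51 (adjusted p = 0.0755), and another probe of Nsdhl had -0.14 (adjusted p = 0.735). In the glucose list 17 of 26 were higher (65.4%, against 50.2% of all genes). Its members of smallest p were Ppp1r3c, which directs glycogen synthesis (-1.37, adjusted p = 0.115), Pdk4, a brake on glucose oxidation (-1.12, adjusted p = 0.134), and Pfkfb3, an activator of glycolysis (1.35, adjusted p = 0.146).

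Of 28 measured genes of DNA repair and damage signalling 17 were higher (60.7%, against 50.2% of all genes), with a median of 0.08. The members of smallest p were 3 translesion synthesis genes, Mad2l2 (-0.56, adjusted p = 0.187), Polk and Poli (0.46, adjusted p = 0.222). Polk was above background in 2 of 5 controls and 13 of 14 treated livers. It was thus kept mainly through the treated group, and its change is not given. Male-biased liver genes were lower in 18 of 22, with 18.2% higher against 50.2% of all genes. Female-biased ones were higher in 11 of 15 (73.3%). The medians were -0.08 for male-biased and 0.15 for female-biased genes, the latter turning to -0.06 on slide 1. Slc16a5, a transporter on the female-biased list, separated on every slide (1.19 ± 0.28, adjusted p = 0.0777), as did the steroid hydroxylase gene Cyp17a1 downwards (-0.34, adjusted p = 0.107). A second, dim probe of Slc16a5 had 0.12 (adjusted p = 0.703) and did not separate.

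Lists of drug and fat metabolism had their members of smallest p short of the threshold as well. Of 23 measured targets and cofactors of the xenobiotic receptors CAR and PXR 15 were higher (65.2%, against 50.2% of all genes). The member of smallest p was Por, the reductase that supplies electrons to cytochrome P450 enzymes (1.39 ± 0.35, adjusted p = 0.0916). Next were the transporter Abcb1a (0.36, adjusted p = 0.178) and the aldehyde dehydrogenase Aldh1a1 (-0.31, adjusted p = 0.265). Among 27 fasting targets of PPAR alpha 17 were higher (63%, against 50.2% of all genes) and the median was 0.05. The members of smallest p were lower: Vnn1, a pantetheinase (-0.58, adjusted p = 0.133), the lipid droplet protein gene Plin2 (-0.46, adjusted p = 0.133), and Pdk4. In the acute phase list 21 of 26 were higher (80.8%, against 50.2% of all genes). Its median was 0.13, and -0.02 without the slide block. The list's members of smallest p were the receptor gene Il1r1 (0.59, adjusted p = 0.194), Orm3 (0.51, adjusted p = 0.242) and the fibrinogen gene Fgb (-0.19, adjusted p = 0.469).

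No marker of another cell type passed. Of 12 endothelial markers 9 were higher (75%, against 50.2% of all genes), with a median of 0.11. At an unadjusted p under 0.05 there were 5 (41.7%, against 13.2% of all genes), and 0 passed. The members of smallest p were Stab1 (0.21), Kdr (-0.32, with 0.15 on its other probe) and Clec4g (0.25). Chosen after their values were seen, the cholangiocyte marker Sox9 had -0.45 (adjusted p = 0.129) and the lymphocyte marker Cd4 had -0.17 (adjusted p = 0.210) and separated on every slide. Another probe of Cd4 had -0.07 (adjusted p = 0.659) and did not separate. The summed liver signal of each of the 9 marker lists overlapped between control and treated livers, for endothelial markers from 30702 to 36440 in controls and from 26518 to 41271 in treated livers. For macrophage markers the sums were 19607 to 52696 and 15300 to 31942. The part of cell makeup in the results above was not tested.

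**Figure D5:**
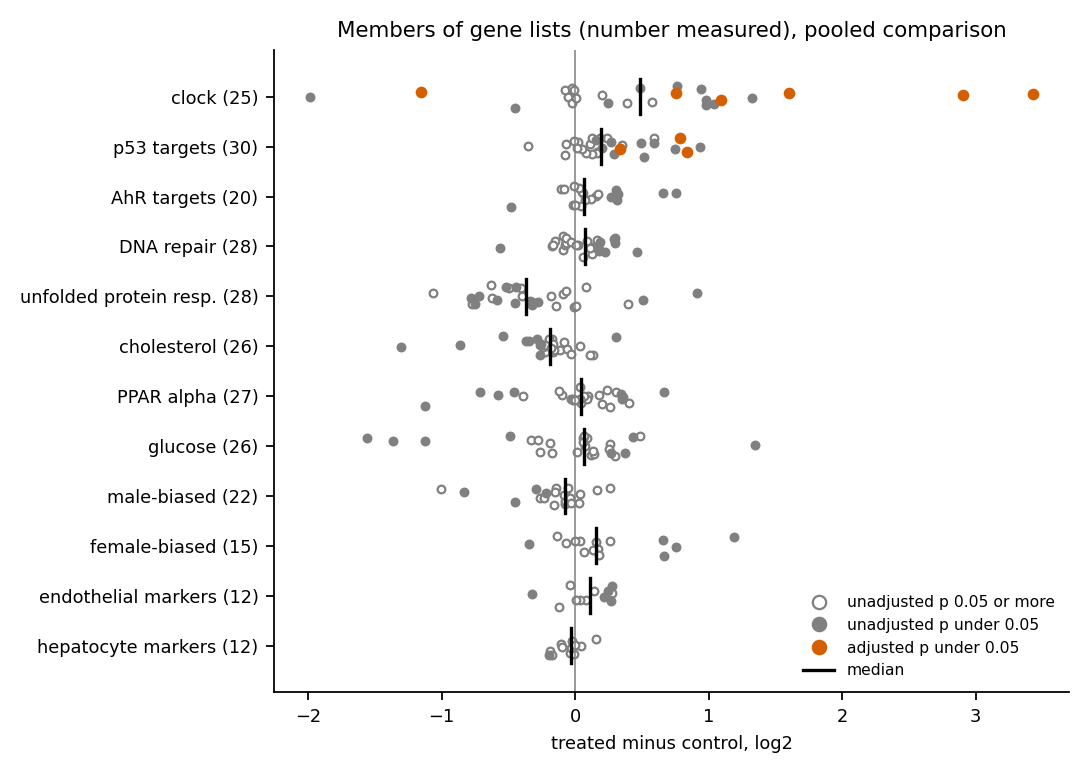
Treated minus control log2 change of each measured member of 12 gene lists, 1 point per gene, with the number measured in brackets and a black tick at the median. Coloured points passed at an adjusted p under 0.05 and filled grey ones reached an unadjusted p under 0.05. Coloured points appear in the clock list (6) and the p53 list (3) alone, and the median lies lowest in the unfolded protein response (-0.37).

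Each channel was also fitted alone. The reference channel, which holds the same RNA on every array and so carries no spread between animals, gave 1 probe (0.00340%), that of Tff3, and 1032 (3.51%) at an unadjusted p under 0.05. The liver channel alone gave 83 (0.282%). In 5 of the 53 probes the reference channel reached an unadjusted p under 0.05. Of the genes named here these included Nr1d2 (-0.12), Tff3 (-1.10) and Th (-0.15).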

How the data were processed

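The authors deposited 1 scanner file per array, holding red (liver) and green (reference) spot intensity and local background as median pixel intensities. Per the file headers, the software was Feature Extraction 10.7.3.1. The deposited table holds log2 ratios; how it was made is not given in the sources used here, and its columns correlated at 0.993 to 0.996 with the ratios computed from the same array. The scanner software's processed signal intensity, also deposited, served as an alternative.

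Here, both channels were corrected by normexp (offset 50) and loess-normalised within each array in limma 3.58.1 (R 4.3.3). Outlier spots were dropped (0.36 to 1.04% of spots per array) and spots of a probe averaged. Among the probes kept, 0.132% of values were then missing. Probes whose liver signal was well above background on 4 or more arrays, with 2 or fewer missing values, were kept (29415 of 55681). RefSeq accessions (GRCm38.p6, for names) gave symbols to 47.4% of probes. A gene is its brightest kept probe.

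Treated and control arrays were compared with lmFit and eBayes, slide as a fixed block, two-sided, with Benjamini-Hochberg adjustment over 29415 probes and a threshold of 0.05. Slides were told apart by the barcode of the scanner files, and printed sample values have the fitted slide difference taken out. With 19 arrays, their number limits the precision. The code was tested on simulated data. Dyes were never swapped, so a dye effect is shared by both groups.

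Named genes are up to 15 rises and 15 falls that passed and separated on every slide, members of described lists that passed (or the 3 of smallest p), Cyp1a1, Cyp1a2, Cyp1b1, Cdkn1a and Mdm2, and up to 3 unnamed probes. Of the items this rule names, 1 unnamed probe and 1 list member are not reported here. The 29 lists hold 558 genes, of which 502 were kept. Members, lists and tests were chosen with earlier results of these data known. The fit of the reference channel alone was added after the data were seen.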

Additional observations from a re-analysis of the deposited data

Results flagged for a closer look

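With slide differences taken out, 3 of 108 gene and dose-group pairs held 1 liver apart from the rest of its group, where chance gives about 1 in 20. Nr1d2, the REV-ERB beta gene, stood at 1.21 in 25 mg/kg replicate 4 and at 1.54 to 1.67 in the other 4 livers of that dose. Mtnr1a stood at 0.60 in 6.25 mg/kg replicate 5 and at 1.69 to 1.97 in the other 4. Tff3 stood at 3.59 in 6.25 mg/kg replicate 1 and at 4.50 to 4.81 in the other 4. None of the 3 lay among the controls.

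The reference channel, which no comparison of groups uses by itself, held a difference for Tff3. Treated minus control was -1.10 ± 0.14 in that channel alone (limma, adjusted p = 0.00796), with values of 6.49 to 7.40 on treated and 7.60 to 8.40 on control arrays. The liver channel fell by 2.07 for the same probe. The cause was not tested.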

How the results depend on the processing

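None of the 26 genes and Cry2 changed direction under any setting; the settings were not run for the other named genes. The 53 probes became 4 without a slide block, 95 with slide as a random block, 112 with doses weighted equally, 19 from processed signals, 83 from the liver channel alone, 87 among probes above background on every array and 249 with array weights. They became 186, 134 and 5 without the 6.25, 12.50 or 25 mg/kg arrays, 7 at an adjusted p under 0.01 and 33 with a 1.5-fold limit. Without slide 1 or slide 2 none passed in limma (0, with 2788 and 2864 probes at an unadjusted p under 0.05), and without slide 3 there were 29. Leaving out 1 animal gave 4 to 152. The cause was not tested. Separated probes numbered 95 across all arrays and 216 to 606 with 1 animal left out, where fewer arrays make the rule easier to meet. Without control replicates 1, 2, 3 or 5 or 12.50 mg/kg replicate 4 they numbered 466, 464, 606, 349 and 334. Probes differing among doses numbered 0 to 3 with 1 animal left out.

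Of the 27 genes (the 26 and Cry2), 27 passed with slide as a random block, 21 in the deposited table, 9 from processed signals and 2 without a block. No paired analysis was possible because replicate numbers were given in accession order and no label ties them to a litter or day. Dim probes limit the test: Cyp1a1 was above background on 1 array.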
